A study of Mus musculus with 21 samples.

Results

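Binding of the vitamin D receptor (VDR) in crypt epithelium was compared with that in villus epithelium of the mouse small intestine (SI), from 4 SI crypt and 4 SI villus VDR ChIP-seq samples among the 21 samples of the series. The sites compared were the union of the 8 MACS2 peak lists, in which peaks sharing at least 1 bp were merged. This gave 21378 sites, each called in between 1 and 8 samples. Alongside them stood the pooled lists that the authors called on the merged alignment of each compartment, with 12702 intervals for SI crypt and 18078 for SI villus. A VDR ChIP-seq library is made from chromatin fragments that antibodies to VDR pulled down, here a mix of 2 antibodies, and a peak is a stretch with more fragments than the local background of the same library. Fold enrichment is the ratio of the fragment pileup at the peak summit to that background.

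The SI crypt samples were duodenal crypts of C57BL/6J mice, which the labels give as 4 to 6 weeks old and the study's methods as older, injected with 1,25(OH)2D3 at 10 ng/g and killed after 1 h. The SI villus samples were duodenal villi of the same strain, age, dose and time. Both came from EDTA-loosened epithelium of the proximal small intestine, the crypts as the flow-through of a cell strainer and the villi as the material held back on it, so the fractions are enriched and not sorted. All 8 ChIP-seq samples carried the hormone, there was no vehicle ChIP-seq, and peaks were called without an input control. The protocol speaks of 3 mice, the study's methods give a different number of animals, and neither ties samples to animals, so the p-values below measure only the spread between these samples. ATAC-seq peak lists, a map of accessible chromatin from 3 samples of each compartment in mice of 90 days, served as an independent readout. The study describes that chromatin as basal and the mice as untreated, so they differed from the ChIP-seq mice in hormone as well as age.

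VDR is the nuclear receptor for 1,25(OH)2D3. With its partner RXR it binds a DR3 element, a direct repeat of a 6-base motif with a spacer of 3 bases, and recruits or releases coregulators at enhancers and promoters. In the duodenum the hormone drives calcium absorption through an apical channel, a cytosolic calcium buffer and a basolateral pump. Crypts hold the stem cells, the dividing progenitors and the Paneth cells, and villi hold the mature absorptive enterocytes that line the lumen.

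The sequences below stand at summits of sites described further on, and were chosen for a DR3 element with at most 1 mismatch. Other sites of the same sets matched less well: 5 of the 7 sites called in every SI crypt and no SI villus sample had 2 to 4 mismatches, and the SI villus sites of Tnrc18, Dnahc10 and F2rl2 had 3. The first set lies at sites called in all 8 samples, or in 3 of each compartment for Bach1, beside genes the study names as VDR targets. The second lies at sites called in every SI crypt and no SI villus sample, or in 4 and 1. The third lies at sites called in every SI villus and no SI crypt sample. The last lies at sites of all 8 samples that were among those of smallest p for a difference in enrichment, of which Spop and Ap3b1 passed in the fit by pairs given below and Trak1 did not. Capitals mark the repeated motif in the stretch that best fitted the DR3 element within the 200 bp around the summit, and lower case marks the spacer and 7 bases on each side. All are from mm9 and run 5′ to 3′ on the strand of the match.
Slc30a10: agggaggAGGTCCttgGGTTCAgagaatc
Slc37a2: gattctaGGGTCAgcgGGTTCTgaaaagg
Bach1: gacttggAGGTCAttgGGGTCAgcttgga
Epb4.1l4b: gggacaaAGTTCAtctGGTTCAcagcttc
Far2: aattctgGGTTGAatgGGTTCAtaaaacc
Kcnh1: cttcctgGAGTCAaaaGGTTCAccccagc
Crim1: aaatcaaGGTTCAggcAGGTCAagctaac
Herc3: ggctgcaGGGTCAcaaGGTTGAggttggc
Eln: gtggtcaGAGTCAccgGGTTCAagtaaga
Spop: acccacaGGGTCActgGGTTGAtctctca
Ap3b1: aggggagAGGTGActgGGGTCAgtcgagc
Trak1: tcattctGGGTCAtctGGGTCAttttggg
The repeats at Bach1, Epb4.1l4b, Crim1 and Trak1 matched the DR3 element at all 12 defined bases, and the other 8 had 1 mismatch. Full matches thus stood at a site called in SI crypt only, at one called in SI villus only and at sites called in both. Among the sites of both compartments, the windows lie at chr1:187326685-187326713 (plus strand) for Slc30a10, 47.9 kb downstream of its start in intergenic sequence, and at chr9:37054084-37054112 (plus) for Slc37a2, in an intron. For Bach1 the window lies at chr16:87681640-87681668 (minus), 17.5 kb upstream and intergenic. In the SI crypt set they lie at chr4:57199100-57199128 (minus) for Epb4.1l4b, 42.8 kb upstream and intergenic, at chr6:148041599-148041627 (plus) in an intron for Far2 and at chr1:194108847-194108875 (minus) in an intron for Kcnh1. In the SI villus set they lie at chr17:78677267-78677295 (minus) in an intron for Crim1, at chr6:58684045-58684073 (minus) for Herc3, 97.4 kb upstream and intergenic, and at chr5:135220917-135220945 (minus) in an intron for Eln. In the last set they lie at chr11:95274217-95274245 (plus) for Spop, 1.13 kb upstream and intergenic, at chr13:95200670-95200698 (plus) in an intron for Ap3b1 and at chr9:121210888-121210916 (plus) in an intron for Trak1.

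The libraries were not of equal quality. They held 3100376 to 9021688 unique fragments in SI crypt, against 4858968 to 12479695 in SI villus. SI crypt 1 was the shallowest, with 28.5% of its fragments unique against 45.9% to 85.0% in the other 7 samples, and yet had the longest list, 13381 peaks against 1136 to 2480 in SI crypt 2 to 4 and 1535 to 10384 in SI villus. Among its 1000 strongest peaks 49.8% lay within 1 kb of a transcription start site (TSS), against 19.6% to 21.2% in SI crypt 2 to 4 and 14.2% to 31.6% in SI villus. Results that rest on SI crypt 1 are therefore given with and without it. No 2 lists were identical. Of the 21378 sites, 888 overlapped pooled peaks that were left out of the deposited pooled intervals.

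The compartment labels of the ATAC-seq lists were checked at promoters, which is no check of the labels of the ChIP-seq samples. A peak covered the TSS of 15 of 20 brush border genes in SI crypt, against 18 of 20 in SI villus. Lct (lactase), Anpep (aminopeptidase N) and Slc2a2 (the glucose transporter GLUT2) were covered in SI villus only. Of 11 Paneth and antimicrobial genes 7 were covered in SI crypt, against 3 in SI villus. Mmp7, Itln1, Reg3b and Reg3g were covered in SI crypt only. Stem cell and cell cycle genes did not separate the compartments. Of 19 stem cell and Wnt genes 17 were covered in each, and of 22 cell cycle genes 19 in SI crypt and 18 in SI villus. None of 10 immune cell marker genes was covered in either compartment, and 2 of 10 stromal marker genes were covered in both.

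The strongest VDR sites were those of both compartments. Of the 21378 sites, 415 were called in all 8 samples, and 357 of these lay outside the left-out regions. Slc30a10, which encodes a manganese exporter, had the strongest site among the genes named as targets, with fold enrichments of 24.3, 38.1, 24.3 and 29.4 in SI crypt 1 to 4, against 32.8, 30.3, 27.7 and 26.0 in SI villus 1 to 4. The ranges overlapped. A second Slc30a10 site 31.7 kb downstream had 20.4, 21.6, 8.91 and 15.3 in SI crypt, against 25.8, 16.9, 8.66 and 14.1 in SI villus. At Slc37a2, a glucose-6-phosphate transporter gene, the intronic site 9.23 kb downstream had 27.6, 29.9, 14 and 16.9 in SI crypt, against 37.5, 41.9, 20.1 and 12.6 in SI villus. The ranges of the compartments overlapped at all 3 sites, and SI villus 1 and 2 were above SI villus 3 and 4 at each.

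Sites of both compartments also lay beside regulators. Vdr itself had a site 19.2 kb upstream with 12.7, 12.5, 8.79 and 10.7 in SI crypt, against 17.6, 11.8, 7.69 and 9.29 in SI villus. Ppard, a lipid-sensing nuclear receptor, had one 2.29 kb upstream with 13.4, 18.6, 11.6 and 14.3 in SI crypt, against 23.2, 21.6, 11.4 and 9.15 in SI villus. The compartments overlapped at each of these sites. The gene for the corepressor Ncor1 had a site 36.3 kb upstream, at an intronic position, that was called in all 8 samples with 17.8 to 32.1 in SI crypt samples, against 15.7 to 34.4 in SI villus. The promoters of Crat (carnitine acetyltransferase), Nsun5 (a ribosomal RNA methyltransferase), Phgdh (the first enzyme of serine synthesis) and Snx8 (a sorting nexin) carried sites that were among the strongest of all, each in all 8 samples with at least 14.5-fold enrichment.

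**Figure D1:**
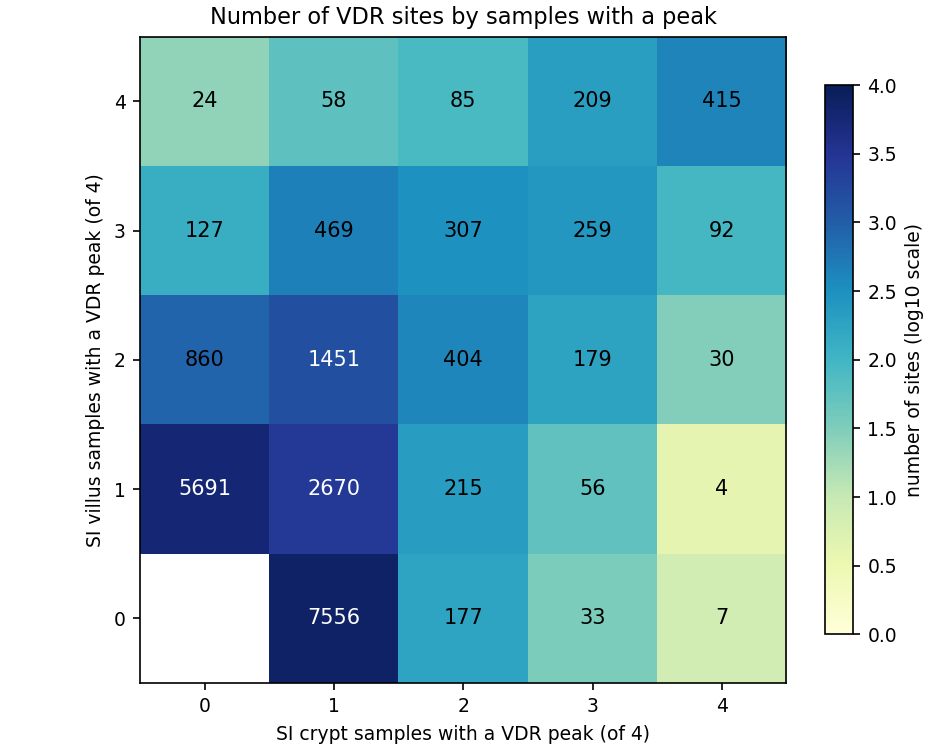
Number of VDR sites by the number of SI crypt samples (horizontal, 0 to 4) and SI villus samples (vertical, 0 to 4) with a peak; colour gives the count on a log10 scale. The corner of all 8 samples holds 415 sites, the corner of 4 SI crypt and 0 SI villus samples 7, and the corner of 0 SI crypt and 4 SI villus samples 24.

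Sites were first compared by presence, to ask which are bound in only one compartment. Most sites were weak and seen once: 13247 of 21378 (62.0%) were called in a single sample, and 7112 of these in SI crypt 1 alone. Peaks were called in both compartments at 6903 sites (32.3%), in SI crypt samples only at 7773 and in SI villus samples only at 6702. With SI crypt 1 left out they were called in both at 2769 of 14395 sites (19.2%), in SI crypt only at 673 and in SI villus only at 10953. Repeated calls were mostly shared. Of 2472 sites in at least 2 SI crypt samples, 2255 (91.2%) were called in at least 1 SI villus sample. Of 4969 sites in at least 2 SI villus samples, 3958 (79.7%) were called in at least 1 SI crypt sample, and 2245 (45.2%) in SI crypt 2, 3 or 4. How many cells of a fraction carried bound VDR and how much was bound per cell cannot be told apart in such data.

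Full separation of the compartments was rare. Of the 21378 sites, 7 (0.0327%) were called in all 4 SI crypt and no SI villus samples, and 24 (0.112%) in all 4 SI villus and no SI crypt samples. No site could pass: the smallest two-sided Fisher's exact p at 4 against 4 samples is 0.0286, which these 31 sites reached, and the smallest p adjusted over the 21378 sites was 1. Without SI crypt 1 there were 11 sites in all 3 SI crypt and no SI villus samples and 67 in no SI crypt and all 4 SI villus samples. Other libraries moved these counts as much: without SI crypt 2 or SI crypt 3 the SI crypt count was 20 or 23, and without SI villus 3 or SI villus 4 the SI villus count was 119 or 51.

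The 7 SI crypt sites were nearest 9230112D13Rik, Epb4.1l4b, Hist1h3e, Gnb2l1, Hist2h3b, 1810009A15Rik and Ly86. The intronic site of 9230112D13Rik had fold enrichments of 8.24, 11.9, 9 and 13.3 in SI crypt 1 to 4 and no peak in SI villus. The Epb4.1l4b site, with its full DR3 element, had 5.83, 9.92, 8.2 and 9.50 in SI crypt and none in SI villus. Epb4.1l4b encodes a band 4.1 family protein that links membrane and cytoskeleton. Hist1h3e and Hist2h3b, clustered genes for histone H3, had sites within 1 kb of their starts with 12.3, 6.06, 4.6 and 10.1 and with 10.3, 3.70, 4.74 and 7.06 in SI crypt, and both overlapped left-out pooled peaks. The site at the 3′ part of Gnb2l1, which encodes the ribosomal scaffold RACK1, had 8.59, 5.42, 3.93 and 3.94. A second Gnb2l1 site, 0.646 kb upstream of its start, was called in 4 SI crypt and 4 SI villus samples. Enrichment at that second site was higher in SI crypt in 0 of 4 pairs of one replicate number. Enrichment at the 7 SI crypt sites was modest, and 4 of the 7 had a peak in the pooled SI villus list, the highest with a −log10 q of 13.2.

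The 24 SI villus sites were led by Tnrc18, Dnahc10, Blmh, Ric8b and F2rl2. The Tnrc18 intronic site had no peak in SI crypt samples, against fold enrichments of 16.3, 14.2, 7.74 and 7.55 in SI villus 1 to 4. Blmh (bleomycin hydrolase) had a site 4.04 kb upstream with no peak in SI crypt samples, against 20.4, 11.1, 10.8 and 12.4 in SI villus. The Crim1 site, with its full DR3 element, had none in SI crypt samples, against 13.6, 11.4, 4.89 and 10.7 in SI villus. Slc2a6 (the glucose transporter GLUT6) had one 4.37 kb upstream with none in SI crypt samples, against 13.7, 7.08, 7.38 and 10.5 in SI villus. Absence in single SI crypt samples was not absence at pooled depth. The pooled SI crypt list had a peak at 20 of the 24 sites, at a median −log10 q of 15.3 against a median of 59.7 over the 24 sites in the pooled SI villus list, and none at Hhat, Rptor, Eln and Rpia, of which all but Eln are named after their values were seen.

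Sites that leaned to a compartment were then described together: 44 were called in at least 3 more SI crypt than SI villus samples and 209 in at least 3 more SI villus than SI crypt samples. Of the 44 SI crypt-leaning sites, 40 were called in SI crypt 1 and all 44 in SI crypt 4. Far2, a gene for a fatty alcohol-forming reductase, had an intronic site with 5.95, 17.3, 11.5 and 11.8 in SI crypt 1 to 4, against 10.2 in SI villus 4 only. Kcnh1, a voltage-gated potassium channel gene, had one with 14.2, 15.4, 9.77 and 13.2 in SI crypt, against 8.93 in SI villus 1 only. Esrrg, an orphan nuclear receptor gene, had one with 16.6, 8.37 and 12.5 in SI crypt 2 to 4 and no peak in SI crypt 1 or any SI villus sample. Shroom1, an actin-binding protein gene that the study names, had an intronic site 5.11 kb downstream with 5.81, 5.67 and 7.08 in SI crypt 2 to 4. No SI villus sample had a peak at that site. Upstream of the Shroom1 start, however, stood a peak of the pooled SI villus list only, nearest Gm10447 and called in 2 SI villus samples. Its pooled −log10 q was 79.3, against 38.8 for the intronic site in the pooled SI crypt list. Sites such as those of Esrrg and Shroom1 did not depend on SI crypt 1.

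ATAC-seq peaks of a single compartment were more frequent among the sites leaning to that compartment. An ATAC-seq peak found in SI crypt only covered 10 of 44 SI crypt-leaning sites (22.7%, 95% Wilson interval 12.8% to 37.0%), against 5 of 209 SI villus-leaning sites (2.39%, 1.03% to 5.48%) and 3.34% of all sites. An ATAC-seq peak found in SI villus only covered 0 of 44 SI crypt-leaning sites (0% to 8.03%), against 42 of 209 SI villus-leaning sites (20.1%, 15.2% to 26.0%). The share over all sites, 6.89%, lay within the interval of the SI crypt-leaning sites. Without SI crypt 1 the same difference of 3 samples was asked, which became unequal. SI crypt-leaning then needed all 3 SI crypt and no SI villus samples. The SI villus-leaning class grew from 209 to 660 by sites that SI crypt 1 had called. The share in SI crypt ATAC-seq peaks only was then 4 of 11 SI crypt-leaning sites, against 11 of 660 SI villus-leaning sites. The share in SI villus ATAC-seq peaks only was 0 of 11 SI crypt-leaning sites, against 73 of 660 SI villus-leaning sites (11.1%). Intervals here and below cover counting error only, and sites are not replicates of a condition, so no test was made.

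Most SI crypt-leaning sites were also called in the colon. Of the 44, 41 (93.2%, 81.8% to 97.7%) had a VDR peak in at least 1 of the 4 colon samples of the series, against 120 of 209 SI villus-leaning sites (57.4%, 50.6% to 63.9%), 387 of the 415 sites of all 8 samples (93.3%) and 28.9% of all sites. Without SI crypt 1 the counts were 11 of 11 SI crypt-leaning sites, against 466 of 660 SI villus-leaning sites (70.6%). The colon samples themselves stood further from both compartments, by unions made anew for each pair. Of 21626 sites of colon and SI villus, 160 (0.740%) were called in all 4 colon and no SI villus samples. Another 94 (0.435%) were called in no colon and all 4 SI villus samples. For colon and SI crypt the counts were 179 (0.782%) and 36 (0.157%) of 22900 sites. For SI crypt and SI villus they were 7 (0.0327%) and 24 (0.112%) of 21378.

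**Figure D2:**
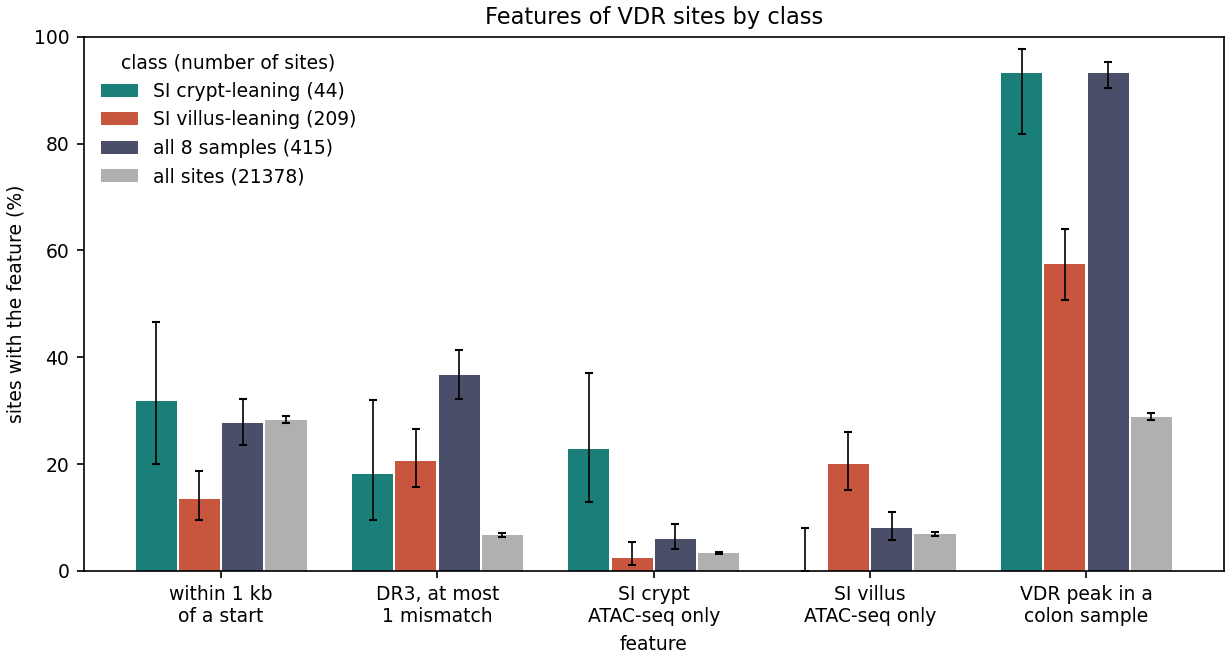
Share of sites (percent, with 95% Wilson intervals as error bars) with each of 5 features, for SI crypt-leaning, SI villus-leaning, all-8-sample and all sites; the number of sites stands in the legend. ATAC-seq peaks of a single compartment sit with the sites leaning to that compartment, and 93.2% of SI crypt-leaning sites had a colon VDR peak against 57.4% of SI villus-leaning sites.

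The DR3 element was more frequent the more samples called a site. With at most 1 mismatch it lay within the 200 bp around the summit at 18.2% of SI crypt-leaning sites (9.51% to 32.0%), 20.6% of SI villus-leaning sites (15.6% to 26.6%) and 36.6% of the 415 sites of all 8 samples, against 6.66% of all sites and 1.05% of windows of the same length 1 kb away. With SI crypt 1 left out it was at 3 of 11 SI crypt-leaning sites (27.3%, 9.75% to 56.6%), against 91 of 660 SI villus-leaning sites (13.8%, 11.4% to 16.6%). The share was 3.72% among sites called in 1 sample, 14.6% among those in 4, 23.5% among those in 6 and 36.6% among those in 8. The GATA motif AGATAA, on either strand, was at 14.2% of the summits of all 8 samples and 9.88% of their flanking windows. Other classes went the other way. Over all sites the GATA motif was at 5.30% of summits and 10.1% of flanking windows. At SI crypt-leaning sites these shares were 2.27% and 6.82%, and at SI villus-leaning sites 9.09% and 12.0%. The AP-1 motif, TGACTCA or TGAGTCA, was at 1 of 44 SI crypt-leaning summits and 11.5% of SI villus-leaning summits, against 2.27% and 5.26% in the flanks and 3.73% of all summits. It was not particular to SI villus-leaning sites, being at 9.64% of the summits of all 8 samples and 1.45% of their flanking windows. With SI crypt 1 left out it was at 0 of 11 SI crypt-leaning summits, against 51 of 660 SI villus-leaning summits (7.73%). A match is a description of the letters there and not evidence of binding by that factor.

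Enrichment at the 415 shared sites asks for differences in degree. Values were centred on each sample's median over these sites, since before centring the median difference, SI crypt minus SI villus, was −0.21 on the log2 scale. No site was called at an adjusted p of 0.05 by limma (0 of 415, 0%), with 32 sites at an unadjusted p under 0.05 and a smallest adjusted p of 0.199. The differences were small, between −0.87 and 0.86 log2 units with a median standard error of 0.23, and 96.6% of sites lay within 1.5-fold. The SI crypt and SI villus samples of one replicate number deviated together, as did some of different numbers. With the number as a block, a pairing read from these same values, limma called 4 of 415 sites (0.964%). Of these, 3 were higher and 1 lower in SI crypt, each at an adjusted p of 0.0355 by that fit. With replicate 1 of both compartments left out the block called none of 478 sites, with a smallest adjusted p of 0.0774.

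The 3 sites higher in SI crypt under the block lay 35.6 kb upstream of Sox4, 25.9 kb upstream of Rpl30-ps6 and 1.13 kb upstream of Spop. Sox4 encodes an HMG-box transcription factor, and its site had 16.2, 17.0, 12.8 and 19.1 in SI crypt 1 to 4, against 16.5, 13.8, 5.44 and 9.93 in SI villus 1 to 4. The log2 difference was 0.86 ± 0.19 (SE with the block), positive in 4 of 4 pairs after centring and 3 of 4 before it. The Rpl30-ps6 site had 26.7, 27.7, 16.2 and 22.8 in SI crypt, against 23.9, 17.7, 10.4 and 15.3 in SI villus, higher in 4 of 4 pairs on either scale (0.75 ± 0.17). Spop encodes an adaptor of a ubiquitin ligase, and its site had 16.5, 23.4, 10.4 and 16 in SI crypt, against 20.5, 14.7, 5.49 and 8.39 in SI villus (0.80 ± 0.18), higher in 4 of 4 pairs after centring and 3 of 4 before it. Sox4 and Rpl30-ps6 sites lay in ATAC-seq peaks of SI crypt only, and the Spop site in neither list.

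The site lower in SI crypt lay in an intron of Ap3b1, which encodes a subunit of an adaptor complex for lysosomal sorting. It had 11.6, 9.46, 7.52 and 6.66 in SI crypt, against 27.0, 28.7, 10.9 and 14.5 in SI villus, a log2 difference of −0.87 ± 0.19, lower in SI crypt in 4 of 4 pairs on either scale. It lay in an ATAC-seq peak of SI villus only. Of the next sites by p, none of which passed, Sh2d6 had 9.67, 8.82, 7.15 and 8.72 in SI crypt, against 22.7, 16.7, 11.9 and 16.3 in SI villus, without overlap. The intronic Trak1 site with its full DR3 element had 8.74, 9.30, 6.81 and 5.77 in SI crypt, against 22.4, 23.6, 10.7 and 7.41 in SI villus.

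**Figure D3:**
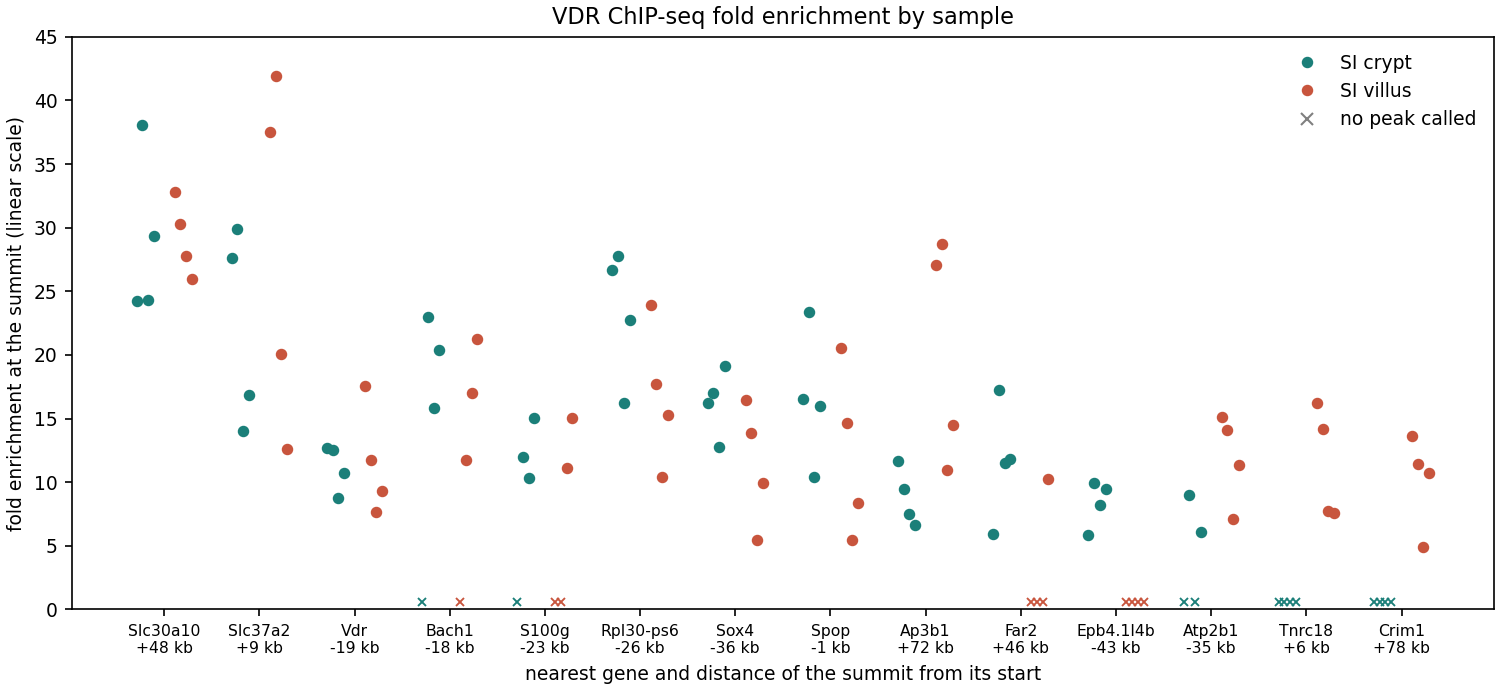
Fold enrichment at the summit (vertical, linear scale) in each SI crypt and SI villus sample, replicates 1 to 4 from left to right, at 14 VDR sites named by their nearest gene and distance from its start; a cross marks a sample without a peak. The compartments overlap at Slc30a10, Slc37a2 and Vdr, and Epb4.1l4b has peaks in SI crypt only and Tnrc18 and Crim1 in SI villus only.

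The direction of the differences at shared sites differed between classes of accessibility. At the 25 sites in SI crypt ATAC-seq peaks only, enrichment was higher in SI crypt at 22, with a median log2 difference of 0.17. At the 33 sites in SI villus ATAC-seq peaks only it was lower in SI crypt at 26, with a median of −0.18. At the 249 sites in both lists the median was −0.01, and at the 108 in neither it was 0.14, against 0.04 over all 415. In each sample the gap between the medians of the first and second class was 0.52, 0.69, 0.39 and 0.52 in SI crypt 1 to 4, against 0.05, −0.27, −0.21 and −0.08 in SI villus 1 to 4, so the compartments did not overlap. Pair by pair the median difference was between 0.13 and 0.29 in the first class and between −0.26 and −0.09 in the second. Leaving out SI crypt 1 gave medians of 0.20 and −0.12, and before centring they were −0.08 and −0.43. The ATAC-seq lists were of unequal length, 74734 intervals for SI crypt against 64782 for SI villus, and the part of this in the classes was not tested.

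**Figure D4:**
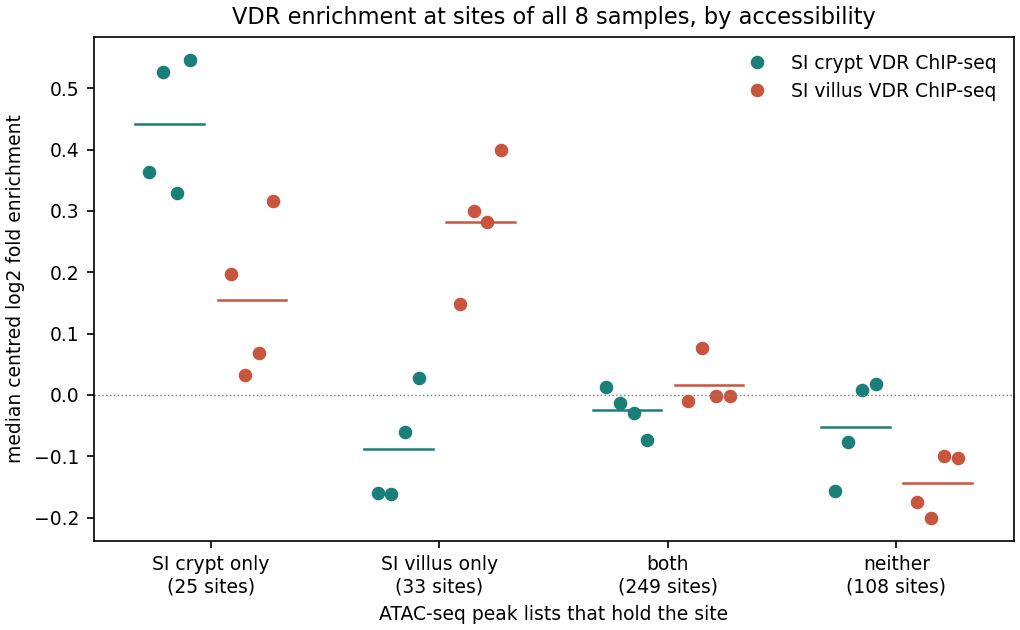
Median centred log2 fold enrichment of VDR (vertical) in each SI crypt and SI villus ChIP-seq sample over the sites called in all 8 samples, by whether the site lies in an ATAC-seq peak of SI crypt only, SI villus only, both or neither; lines give the mean of 4 samples. SI crypt samples sit between 0.33 and 0.55 at the 25 SI crypt-only sites, above the SI villus samples (0.03 to 0.32), and below all of them at the 33 SI villus-only sites.

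Overlap of the strongest peaks was not detectably higher within a compartment than between them. Of the 1000 strongest peaks, on average 55.6% were shared between samples of the same compartment and 54.7% between an SI crypt and an SI villus sample. The difference was 0.95 percentage points (one-sided exact permutation test over 70 labelings, p = 0.229). SI crypt and SI villus samples of the same number shared 61.2% and those of different numbers 52.5%. Both shared less with colon samples, 43.7% for SI crypt and 40.9% for SI villus. Without SI crypt 1 the difference within minus between compartments was 2.77 points (one-sided exact permutation p = 0.286). The lists of a pair overlapped in the same way. In pairs 1 to 4, 38.5%, 72.1%, 68.0% and 61.3% of SI crypt peaks were in the SI villus list of that number, and 50.0%, 26.3%, 51.0% and 40.1% of SI villus peaks in the SI crypt list.

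In the make-up of the 1000 strongest peaks no property passed the test. The share within 1 kb of a TSS was 27.7% ± 14.7 in SI crypt samples, against 24.8% ± 7.95 in SI villus (SD, n = 4 each), with an exact permutation p of 0.83. With SI crypt 1 left out the SI crypt mean was 20.4% ± 0.80 (n = 3), below that of SI villus (difference −4.38 points, exact p = 0.314). Median fold enrichment was 10.3 ± 2.2 in SI crypt samples, against 12.8 ± 3.86 in SI villus, with an exact p of 0.286. It was lower in SI crypt in 4 of 4 pairs, with an exact p of 0.125 by pairs, the smallest that 16 sign flips allow (adjusted 0.875). A fully matching DR3 element lay at 6.73% ± 2.50 of SI crypt and 6.53% ± 1.21 of SI villus summits. Over 7 such properties the smallest adjusted exact p was 0.943. The smallest unadjusted p was for SI villus ATAC-seq peaks, which held 58.1% ± 6.68 of SI crypt and 64.5% ± 5.56 of SI villus peaks (exact p = 0.2), and 55.0% ± 3.08 of SI crypt peaks without SI crypt 1 (n = 3, exact p = 0.0857, adjusted 0.433).

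The pooled lists held many weaker peaks, and those were the less shared. In the pooled SI crypt list 8347 of 12702 peaks (65.7%) were also in the SI villus list, and in the pooled SI villus list 8312 of 18078 (46%) were also in the SI crypt list. The overlap followed strength: 97.2% of the strongest decile of SI crypt peaks and 28.3% of the weakest were shared, against 95.2% and 16.5% for SI villus. Of pooled peaks called in all 4 samples of their own compartment, 99.4% were shared in either list. Only 45.9% of the 4355 unshared SI crypt peaks, and 31.6% of the 9766 unshared SI villus peaks, had been called in any sample of their compartment. Sharing of pooled SI crypt peaks differed by the samples that called them. It was 87.9% for peaks called in SI crypt 2, 3 or 4. For peaks found in SI crypt 1 but in no other SI crypt sample it was 69.5%. The 4439 peaks that no SI crypt sample had called were shared least, at 46.9%. Of the 1997 unshared peaks that an SI crypt sample had called, 1652 were found in SI crypt 1 only. The pooled libraries held 25325174 unique fragments in SI crypt, against 34583701 in SI villus. The part of this in the list lengths was not tested.

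**Figure D5:**
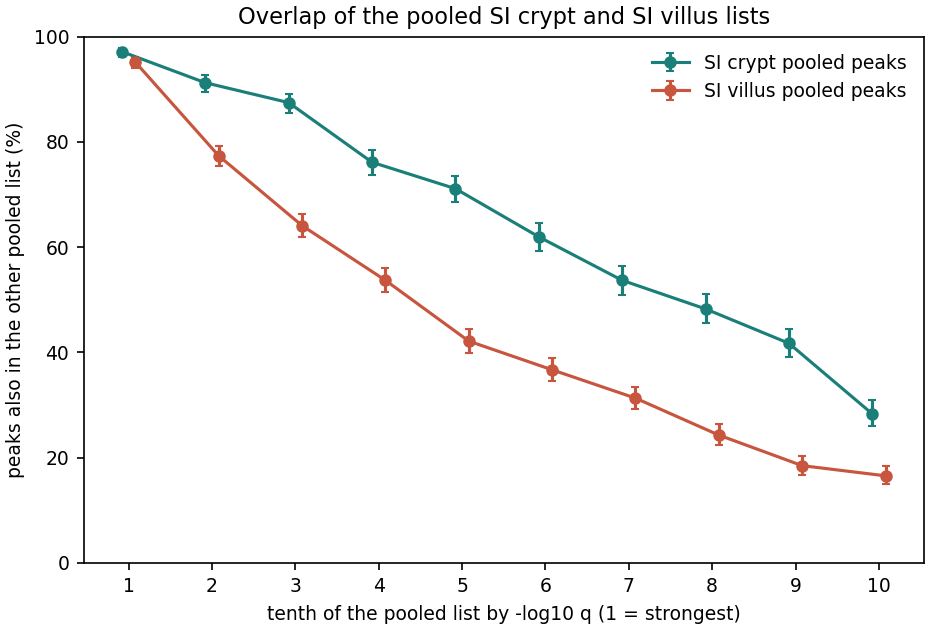
Share of pooled VDR peaks also in the other compartment's pooled list (percent, vertical, with 95% Wilson intervals) by decile of the list from strongest (1) to weakest (10) by −log10 q, for SI crypt and SI villus. The SI crypt series runs between 97.2% and 28.3% and the SI villus series between 95.2% and 16.5%.

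At the level of genes, full separation of the compartments was rare too. A site within 10 kb of the TSS was found for 6978 of 22367 protein-coding genes in any sample, for 3431 of them (49.2%) in both compartments and for 205 in all 8 samples. Of the 6978 genes, 4 (0.0573%) had a site in all 4 SI crypt and no SI villus samples: Hist2h3b, Hist1h3e, 9230112D13Rik and 1810009A15Rik. Another 5 (0.0717%) had one in all 4 SI villus and no SI crypt samples: Slc2a6, Slc25a44, Blmh, Fcf1 and Ndst1. None could pass Fisher's exact test at this size, and the smallest adjusted p was 1. Without SI crypt 1 the counts were 5 of 5071 genes in SI crypt, against 31 in SI villus. Of those genes 23.4% were in both compartments. Without SI crypt 2 or 3 the SI crypt count was 16 or 12, and without SI villus 3 or 4 the SI villus count was 34 or 10. In the pooled lists 5013 genes lay near SI crypt peaks and 6390 near SI villus peaks, and 4131 near both, 82.4% of the SI crypt and 64.6% of the SI villus genes.

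Genes of calcium absorption were reached in both compartments. Of 10 genes, 6 had a site within 10 kb of the TSS in an SI crypt sample and 5 in an SI villus sample, 4 in more SI crypt samples and 0 in more SI villus samples, with medians of 1.5 and 0.5 samples against 0 and 0 over all genes. A site in SI crypt 2, 3 or 4 was found for 5 of the 10, against 1339 of all 22367 genes, of which 5499 had one with SI crypt 1 included. Trpv6, the apical calcium channel, had a site 1.93 kb upstream called in SI crypt 2 (8.76-fold) and SI villus 1 (7.66-fold), and one 3.97 kb upstream called in SI crypt 1 (4.72-fold) and SI villus 1 (7.15-fold). S100g, the cytosolic calcium buffer calbindin-D9k, had a site 22.7 kb upstream with 12.0, 10.4 and 15.0 in SI crypt 2 to 4, against 11.1 and 15.0 in SI villus 3 and 4. A broad S100g site 1.80 kb downstream of the start had 4.22, 4.61 and 3.70 in SI crypt 1, 3 and 4, against 3.59 in SI villus 4. Atp2b1, the basolateral calcium pump, had a site 34.8 kb upstream that leaned the other way. That site had 9.02 and 6.11 in SI crypt 2 and 4, against 15.1, 14.1, 7.08 and 11.3 in SI villus 1 to 4. The gene as a whole did not lean within 10 kb. A site 0.112 kb downstream of its start was called in 2 SI crypt and 2 SI villus samples. Cldn15, a pore-forming tight junction protein, had a site within 10 kb in all 8 samples. Calb1, Trpv5, Slc8a1 and Cacna1d had none within 10 kb in any sample.

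Of 17 genes of the vitamin D system itself, 3 (17.6%) had a site within 10 kb in an SI crypt sample, against 6 (35.3%) in an SI villus sample. The shares over all genes were 24.6% in SI crypt and 22.0% in SI villus. None of the 17 had one in SI crypt 2, 3 or 4. In the pooled lists 7 of the 17 (41.2%) lay near an SI crypt peak, against 9 (52.9%) near an SI villus peak, where all genes gave 22.4% and 28.6%. Cyp24a1, the enzyme that degrades the hormone, had a site 11.1 kb upstream with 7.23, 7.96 and 7.60 in SI crypt 1, 2 and 4, against 11 and 7.85 in SI villus 1 and 4. Cyp2r1, which encodes a hydroxylase that activates vitamin D, had one at its start with no peak in SI crypt samples, against 4.77 and 5.00 in SI villus 1 and 4. Of the 12 further genes the study names as VDR targets, chosen on the study's own data and so no independent evidence, 4 had a site in more SI crypt and 3 in more SI villus samples. The study names some of them, Hif1a, Klf5 and Ptges, for the colon. Bach1, a heme-regulated repressor, had its DR3 site called at 23.0, 15.9 and 20.4 in SI crypt 2 to 4, against 11.7, 17.0 and 21.2 in SI villus 2 to 4. Hif1a, the hypoxia factor, had one 17.2 kb upstream with 8.31, 8.80 and 14.2 in SI crypt 2 to 4, against 8.90 and 11.7 in SI villus 3 and 4. Ptges, a prostaglandin E synthase gene, had one 36.3 kb downstream of its start, at an intronic position, with 6.77 in SI crypt 1, against 11.7, 6.24, 7 and 8.77 in SI villus 1 to 4. The study presents Ptges as its example of VDR binding in colon that is lower or absent in the small intestine.

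Enterocyte genes were called in more SI villus samples. Of 20 brush border genes 2 had a site in more SI crypt and 13 in more SI villus samples, with medians of 1 and 2 samples. Of 23 genes of enterocyte lipid handling the numbers were again 2 and 13, with medians of 1 and 2, against 2326 and 2956 of all 22367 genes with medians of 0 and 0. A site in SI crypt 2, 3 or 4 was found for 6 of the brush border and 8 of the lipid genes, against 14 of each with SI crypt 1 included and 16 and 15 in SI villus. Slc15a1, the peptide transporter, had a site at its start with 7.55 in SI crypt 1, against 6.44, 5.89, 3.83 and 4.30 in SI villus 1 to 4. Slc6a19, a neutral amino acid transporter, had one with 7.93 and 6.83 in SI crypt 1 and 2, against 10.0, 11.5, 3.61 and 4.54 in SI villus. Slc2a5, the fructose transporter, was reached within 10 kb in no SI crypt and 3 SI villus samples. Treh (trehalase) had a site 3.05 kb upstream in all 8 samples, with 8.63 to 20.7 in SI crypt samples, against 7.89 to 15.1 in SI villus.

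Among lipid genes, Abcg5, a sterol exporter, had an intronic site 2.65 kb upstream with 8.78 and 13.4 in SI crypt 1 and 2, against 19.6, 19.8, 11 and 6.19 in SI villus. Apoa1 and Apoa4, apolipoproteins of chylomicrons, had broad sites of low enrichment, with 3.58 to 5.94 in SI crypt 1, 3 and 4, against 3.83 to 5.37 in all 4 SI villus samples. Mttp, which loads lipid onto apolipoprotein B, had an intronic one 15.3 kb downstream of its start with 7.33, 6.29 and 3.50 in SI crypt 1, 2 and 4, against 13.5, 13.6, 4.34 and 3.03 in SI villus. At Mttp, Abcg5 and Slc6a19 alike replicates 1 and 2 were the highest in SI villus.

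Other gene groups were mixed. Of 23 intestinal transcription factor genes 2 had a site in more SI crypt and 10 in more SI villus samples (medians 1 and 2), and Cdx2, which keeps intestinal identity, had a site 7.41 kb downstream with 6.63, 5.77 and 3.11 in SI crypt 1, 2 and 4, against 5.72, 6.17, 4.1 and 3.05 in SI villus. Of 23 genes of drug metabolism and efflux the numbers were 2 and 7 (medians 1 and 1). In SI crypt 2, 3 or 4 a site was found for 7 of the 23 genes in each of these groups, against 18 and 16 with SI crypt 1 included. Nr1i2, the xenobiotic receptor PXR, had 13.2 and 9.70 in SI crypt 1 and 2, against 18.4, 26.3, 4.63 and 4.12 in SI villus, and the P450 gene Cyp2c55 had 19.4, 14 and 18.3 in SI crypt 2 to 4, against 7.53, 5.64, 11.8 and 19.3 in SI villus. Metal and heme genes went the other way, 5 of 15 with more SI crypt and 2 with more SI villus samples (medians 2 and 1), and 9 of the 15 had a site in SI crypt 2, 3 or 4. Heph, the ferroxidase of iron export, had a site at its start with 10.4, 21.1, 11.5 and 14.4 in SI crypt, against 21.8, 15.6, 9.87 and 5.82 in SI villus. Tfrc, the transferrin receptor, had one with 12.1 and 4.70 in SI crypt 1 and 4 and no peak in any SI villus sample.

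Genes of crypt programmes were counted in the same way, against the 2326 and 2956 of all 22367 genes with a site in more SI crypt and in more SI villus samples. Of 19 stem cell and Wnt genes 3 had a site in more SI crypt and 3 in more SI villus samples, of 22 cell cycle genes 3 and 5, of 26 ribosome biogenesis genes 3 and 3, of 11 Paneth and antimicrobial genes 2 and 1, and of 18 secretory and Notch genes 2 and 1. Medians were 0 in both compartments, except 0.5 in SI crypt for the cell cycle. Mki67, the proliferation marker, had a distant site 19 kb upstream with 5.15, 8.63, 7.16 and 11.7 in SI crypt, against 9.02 and 9.29 in SI villus 1 and 4. Hes1, the Notch effector, had one 2.68 kb downstream with 11.7, 9.07, 5.30 and 7.41 in SI crypt, against 13.9, 14.6 and 8.01 in SI villus 1, 2 and 4. Cdkn1a, a cell cycle inhibitor, had one with 5.32 and 3.12 in SI crypt 1 and 4, against 8.17, 12.0, 3.36 and 4.13 in SI villus. None of 10 immune cell marker genes had a site within 10 kb in any sample, and of 10 stromal marker genes only Col1a1 did, in 3 SI crypt and 2 SI villus samples.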

How the data were processed

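VDR ChIP-seq in 4 SI crypt and 4 SI villus samples was used, with pooled VDR lists, 4 colon VDR lists and ATAC-seq lists as readouts beside them. Per the submitters' processing notes the tools were cutadapt 1.9.1, Bowtie2 2.2.6, SAMtools 0.1.19, Picard 2.18.27, MACS2 2.1.0.20150731, bedtools 2.17.0, deepTools and DiffBind, and the build was mm9. The study's methods add NGmerge for trimming the ChIP-seq reads. The deposited peak lists give, from MACS2 at a q of 0.05 with no control and 1 fragment kept per position, the fold enrichment (a ratio over the local background), the pileup signal at the summit and the −log10 q. The authors called the pooled lists on merged alignments and left some pooled peaks out of the deposited intervals. The deposited DiffBind intervals, which hold the authors' own comparisons between tissues, were not used. No read counts per site were used, so absence of a peak depends on depth, complexity and the threshold.

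Peaks were merged at 1 bp overlap, and sites were placed on GENCODE vM1 (22367 protein-coding genes). Distances are to the start of the nearest gene, and "within 1 kb of a TSS" counts the start of any protein-coding transcript. A gene was assigned to a site midpoint within 10 kb. Of 261 list symbols 259 were found, 2 of them by an older symbol. Presence was tested by Fisher's exact test with Benjamini-Hochberg adjustment over all sites or genes, values per sample by two-sided exact permutation (smallest p 0.0286), and log2 fold enrichment by limma 3.58.1 in R 4.3.3, without a pseudocount. The scripts ran in Python 3.11.15 with scipy 1.17.1, numpy 2.4.6, matplotlib 3.10.9 and pysam 0.24.0. The overlap, presence, exact permutation and DR3 steps and the limma fit without a block were tested on simulated data. The block fit, the tests by pairs and the similarity test were not. The similarity test was one-sided, counting labelings with a difference at least as high as the one seen.

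SI crypt and SI villus samples share replicate numbers in the labels. Deviations from the group means correlated within the same number at 0.50, 0.33, 0.53 and 0.65 over 415 sites. Between different numbers the correlations ran from −0.62 to 0.53, the highest being that of SI crypt 1 with SI villus 2. On these values the numbers were taken as pairs, and a fit with the number as a block was run beside the one without it. No label states such a pairing, and it was read from the same values that the block fit tests. Genes named are those of the study's text on VDR binding, members of 15 lists called in the most samples or most unequally, the 10 strongest sites of all 8 samples, the 10 sites most unequal in number of samples and the 10 of smallest p in the fold enrichment fit, each in both directions. One gene that the rule names is not reported here. Members and lists were chosen with earlier results of these data known. Alternatives were each sample left out, the block, a −log10 q of at least 5, other overlap and gene distances, other numbers of strongest peaks and other scales. Those leaving out pooled peaks absent from the deposited intervals, or replicate 1 of both compartments, were chosen after seeing the data.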

Additional observations from a re-analysis of the deposited data

Results flagged for a closer look

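Of 131 groups of 4 values checked for a sample far from the others, 4 had such a sample, and chance gives about 1 in 20. SI crypt 1 had 13381 peaks, against 1136 to 2480 in SI crypt 2 to 4. Among its 1000 strongest peaks 49.8% lay within 1 kb of a TSS, against 19.6% to 21.2%, and the mean GC content at the summit was 61%, against 50.1% to 51.5%. At the Blmh site SI villus 1 had a fold enrichment of 20.4, against 10.8 to 12.4 in SI villus 2 to 4.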

How the results depend on the processing

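Counts of sites or genes of a single compartment moved with most settings. With one sample left out, sites in every SI crypt and no SI villus sample numbered 7 to 23, and sites in no SI crypt and every SI villus sample 26 to 119. The gene counts were 4 to 16 and 5 to 34. At a −log10 q of at least 5 there were 3 such SI crypt sites and 1 gene, without left-out pooled peaks 2 SI crypt genes, with genes within 2 kb 2 SI villus genes, and with replicates 2 to 4 of both compartments 14 SI crypt and 71 SI villus sites. Fewer samples or genes per list make part of this by construction, and otherwise the cause was not tested.

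The similarity difference ran between −1.04 and 2.77 points with one sample left out. It was −0.646 on the Jaccard index of all peaks (one-sided exact permutation p = 0.429). With the replicate number as a block it was 3.12 (one-sided exact permutation p = 0.125, the smallest 16 sign flips allow). At the 415 sites limma called 4 with the replicate block, 5 with the block and without left-out pooled peaks, 1 on log2 of −log10 q and 0 to 0 with one sample left out. The peak number difference was −1.25 to −0.06 log2 units with one sample left out, and its block p was 0.25 (exact).

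No property passed in any setting. With one sample left out the differences were −16.1 to 59.7 bp in width, −3.97 to −1.33 in fold enrichment, −4.38 to 5.68 points near a TSS, −0.592 to 1.34 points with a DR3 element, −2.20 to 1.44 points of GC, −3.44 to 1.17 points in SI crypt ATAC-seq peaks and −9.47 to −4.51 points in SI villus ones. Signs also turned over all peaks (fold enrichment 0.746, TSS −3.19, GC −1.14), without left-out peaks (DR3 −0.0184) and with 500 peaks (SI crypt ATAC-seq 0.1). Pooled SI crypt overlap was 73.3% at −log10 q of at least 5, 60.2% at 50% overlap and 87.9% for peaks of SI crypt 2, 3 or 4, and pooled SI villus overlap 49.0%, 42.1% and 14%. Depth and complexity limit what absence of a peak can show.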

Other observations

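Clustered histone genes were noticed among the SI crypt-leaning sites after the values were seen, so no test was made. They were nearest to 9 of 44 SI crypt-leaning sites (20.5%), against 0 of 209 SI villus-leaning sites and 57 of 21378 sites (0.267%). The 0 of 209 allows up to 1.44%, taken as 3 sites and not as a Wilson interval. Peaks were called at 9, 3, 9 and 9 of these sites in SI crypt 1 to 4, against 1, 0, 0 and 0 in SI villus 1 to 4, and 4 of the 9 overlapped left-out pooled peaks. Without SI crypt 1, 2 of 11 SI crypt-leaning sites were nearest to such genes, Hist1h3e and Hist2h3b. Cytosolic ribosomal protein genes, likewise noticed after the values were seen, were nearest to 4 of 44 SI crypt-leaning sites: Rpl10a, Rps19, Rps2 and Rps21. That was against 0 of 209 SI villus-leaning sites and 110 of 21378 sites (0.515%). Of the 415 sites of all 8 samples, and of the 11 SI crypt-leaning sites without SI crypt 1, 0 were nearest to such genes.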
